A study of Homo sapiens with 39 samples.

Results

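The BCL2 family decides whether the outer mitochondrial membrane is opened during apoptosis. The anti-apoptotic members hold the pore-forming effectors in check, and the BH3-only members, which share only the short BH3 domain, either block those guardians or activate the effectors directly. B-lineage tumour cells are known to depend on BCL2, on BCL-XL or on MCL1 to differing degrees. The 10 members described here are a part of the family, grouped as outside the direct p53 targets, and do not include every such gene. They comprise 4 anti-apoptotic genes (BCL2, BCL2L1, MCL1 and BCL2A1) and 6 pro-apoptotic genes, namely the effector BAK1 and the 5 BH3-only genes BID, BCL2L11, BAD, BIK and BMF. They were chosen by gene symbol, with earlier results of these data known, and 16 of the 20589 probes of the array carried one of these symbols.

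Expression was measured in total RNA on 39 Illumina BeadChip arrays, 19 of IM-9 and 20 of U266. IM-9 is an Epstein-Barr virus-transformed B-lymphoblastoid line, labelled sensitive, and U266 is a multiple myeloma line, labelled tolerant. Cells were exposed to 10 nM ch128.1Av, a fusion of avidin with an antibody against transferrin receptor 1, for 1, 3, 9 or 24 h. Control cells received buffer for the same times, and untreated cells were taken at 0 h, so that each line formed 9 of the 18 groups. A group held 2 arrays, except that 3 arrays were made with ch128.1Av for IM-9 at 3 h and for U266 at both 1 h and 9 h. Each line is a single established line, and the labels do not say whether replicates came from separate cultures, so p-values measure the spread between these arrays, which may be technical.

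Of the B-cell marker list, 6 of the 8 genes on the array were higher in untreated IM-9 cells and 0 in untreated U266 cells. The B-cell genes FCER2, EBI3, CD79A, CD40 and CD22 were detected on 19 of 19 IM-9 arrays and 0 of 20 U266 arrays, whereas CD79B was detected on all arrays of both lines. PAX5 was not detected on any array and MS4A1 only on 1 IM-9 array. The plasma cell list did not divide the lines in 1 direction, since 3 of its 8 genes were higher in IM-9 (IRF4, SLAMF7 and MZB1, by 0.27, 0.54 and 1.64) and 5 in U266. Those higher in U266 included the myeloma cyclin CCND1, detected on 0 IM-9 and 20 U266 arrays, and SDC1, detected on 3 IM-9 and 13 U266 arrays. The median log2 level of SDC1 was 9.17 in IM-9 and 13.2 in U266. For so bright a probe, a failed detection does not mean that the RNA was absent. Of this list 6 genes were detected on all IM-9 arrays and 7 on all U266 arrays. Of 15 measured markers of T, NK, myeloid, erythroid, epithelial and stromal cells, 11 were not detected in IM-9 and 11 in U266. The highest median among the others was 8.27 (log2), for HBB in U266. Median raw intensity per array was 137.9 to 223.3. Array brightness, taken as the 75th percentile of raw intensity over the 5th, was not the same in all groups. It is a ratio and does not rank arrays by raw signal. The array with the highest median, U266 with ch128.1Av at 3 h (replicate 2), had a ratio of 5.37. In addition, 7 U266 arrays had a top raw signal over 60000. Both measures are given beside the results they move with.

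All 10 members had at least 1 probe that passed the detection filter, and 14 of the 16 probes did. The remaining 2 probes, both for BMF, were left out. The probe with the highest mean represents its gene. Values below are log2 normalized intensities, and since probes differ in their response to RNA amount, levels are compared only within a probe, between arrays. A log2 difference of 1 is a 2-fold change.

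**Figure D1:**
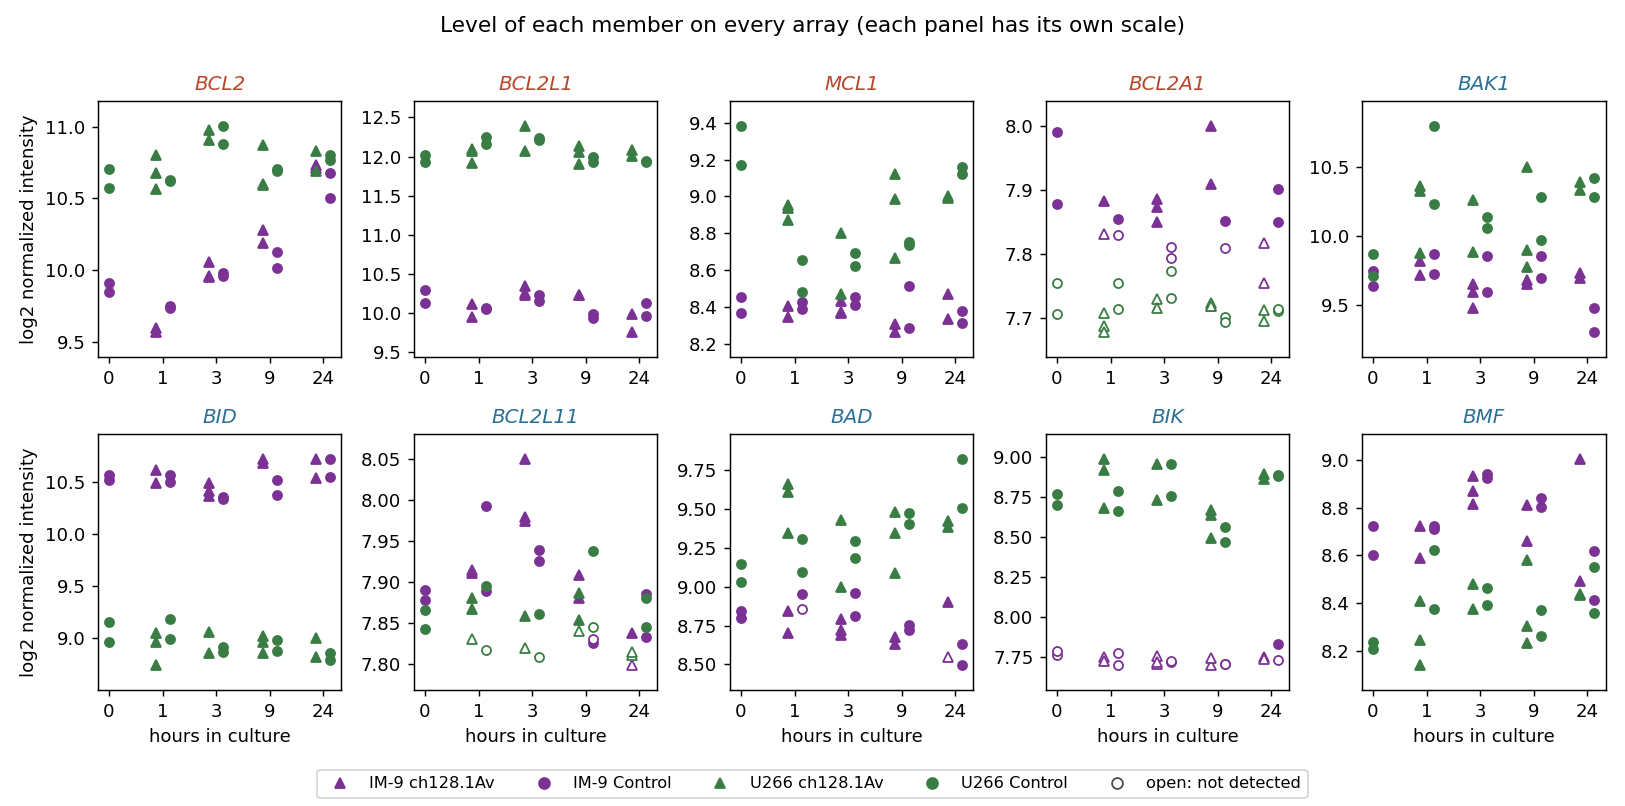
Log2 normalized intensity of the 10 members (y axis, own scale per panel) on every array by hours in culture (x axis), with ch128.1Av as triangles left of Control as circles, IM-9 in purple and U266 in green, and open symbols where the probe was not detected. Gene names are red for anti-apoptotic and blue for pro-apoptotic members. BCL2L1, BID, BAD and BIK keep the lines apart on all arrays, and BCL2 in IM-9 reaches the U266 range at 24 h.

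The first comparison asks how the members stand in the sensitive line relative to the tolerant line before treatment. Untreated IM-9 cells had less BCL2, BCL2L1, MCL1 and BIK mRNA than untreated U266 cells, and more BID, BMF and BCL2A1 mRNA. Fewer cells expressing a gene and less RNA per cell cannot be told apart in such bulk RNA. BAK1, BCL2L11 and BAD did not pass the test. Thus 7 of 10 members were called at an adjusted p under 0.05 (limma, Benjamini-Hochberg over 12080 probes), 3 higher and 4 lower in IM-9. The lines differ in much of their expression, and 66.6% of all probes tested were called in this comparison, so the share of members called is near the background. The arrays of the lines did not overlap for 9 of 10 members, against 81.4% of all probes. On the highest-mean probe of each gene, the members' differences had a median size of 0.60 log2 units. The value for all probes was 0.29, but these include dimmer second probes of genes, so the 2 sets are not alike. The kept second probes of members differed by only -0.01 (BCL2), 0.07 (BID), 0.03 (BCL2L11) and 0.08 (BAD).

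Among the anti-apoptotic members, BCL2L1, which encodes BCL-XL, lay farthest apart. Its level was 10.30 and 10.13 in IM-9, against 11.93 and 12.03 in U266, so both IM-9 arrays lay well below both U266 arrays. This was a difference of -1.77 (SE 0.0927, n = 2 and 2, adjusted p = 1.65e-14), or 3.41-fold lower in IM-9. MCL1, the short-lived guardian that mouse plasma cells are known to need, was at 8.37 and 8.45 in IM-9, against 9.17 and 9.38 in U266. The difference of -0.87 (SE 0.106, adjusted p = 1.13e-07) is 1.82-fold lower in IM-9. BCL2, the founding member of the family, was at 9.85 and 9.91 in IM-9, against 10.70 and 10.57 in U266, a difference of -0.76 (SE 0.0803, adjusted p = 9.26e-09) or 1.69-fold lower in IM-9. These 3 genes shared their direction, and none of their groups overlapped.

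BCL2A1, which encodes the NF-kB-induced guardian BFL1, went the other way. It was at 7.99 and 7.88 in IM-9, just above the detection limit, and at 7.71 and 7.75 in U266, where it was not detected. Its level in IM-9 was at least 1.12-fold higher than in U266 (measured difference 0.20, SE 0.034, adjusted p = 1.06e-05), and the authors' deposited log2 values gave 0.78. Over the whole series BCL2A1 was detected on 12 of 19 IM-9 arrays and on 0 of 20 U266 arrays.

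Among the BH3-only genes, BID, whose protein is cleaved by caspase-8 to carry death-receptor signals to mitochondria, had the widest difference. It was at 10.56 and 10.51 in IM-9, against 9.16 and 8.96 in U266, which is 1.48 higher (SE 0.0968, adjusted p = 1.3e-12) or 2.79-fold. BMF, whose protein is released from the cell's actin motors under stress, was at 8.60 and 8.72 in IM-9, against 8.21 and 8.24 in U266, which is 0.44 higher (SE 0.125, adjusted p = 0.00336) or 1.36-fold. The BMF call was lost with array brightness as a covariate (0.27, adjusted p = 0.0711). BIK, a BH3-only protein of the endoplasmic reticulum, was at 7.76 and 7.79 in IM-9, where it was not detected, and at 8.70 and 8.77 in U266. This is at least 1.94-fold lower in IM-9 (measured difference -0.96, SE 0.0797, adjusted p = 1.18e-10), and the authors' deposited log2 values gave -1.865. BIK was detected on 1 of 19 IM-9 arrays and on 20 of 20 U266 arrays.

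The effector BAK1 was at 9.63 and 9.74 in IM-9, against 9.71 and 9.87 in U266, and its groups overlapped (-0.10, 95% CI -0.50 to 0.30, adjusted p = 0.671). BCL2L11, which encodes BIM, was at 7.89 and 7.88 in IM-9, against 7.84 and 7.87 in U266, close to the detection limit in both (0.03, 95% CI -0.05 to 0.10, adjusted p = 0.486). BAD, a sensitizer held inactive by survival-kinase phosphorylation, was at 8.80 and 8.85 in IM-9, against 9.03 and 9.15 in U266. Its difference of -0.27 (95% CI -0.55 to 0.01) did not pass at 0 h (adjusted p = 0.0886), although it passed in 3 of 8 processing alternatives. A second BAD probe gave 0.08 (adjusted p = 0.0959), so the probes of this gene differ in sign.

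**Figure D2:**
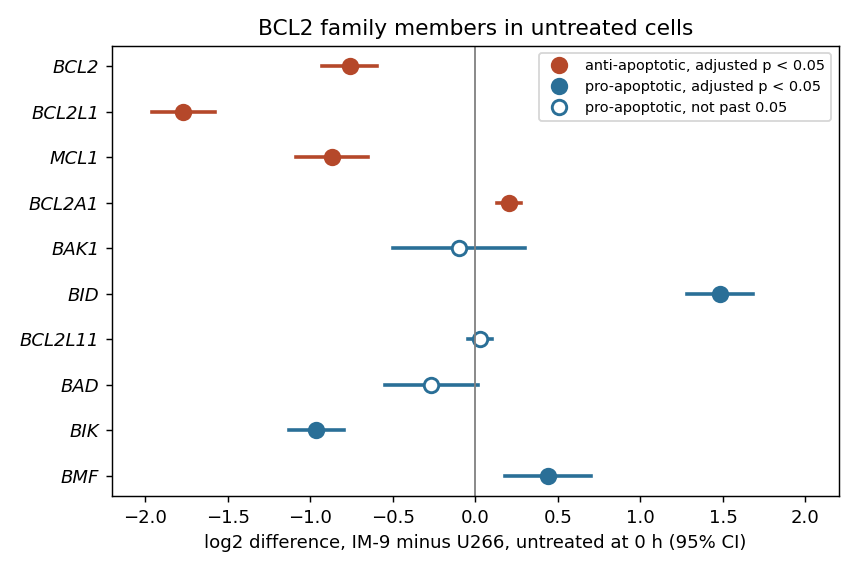
Log2 difference in untreated cells at 0 h, IM-9 minus U266 (x axis), for each member (y axis), with 95% confidence intervals from limma and n = 2 arrays per line. Filled symbols passed an adjusted p of 0.05. BCL2L1 lies lowest at -1.77 and BID highest at 1.48.

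BID and BCL2L1, the members with the largest positive and negative differences, are shown here with the sequence around one of their annotated starts. RefSeq promoter windows of GRCh38.p14, 250 bases before to 50 after a start, were matched by symbol for 8 of the 10 members, 15 windows in all. MCL1 and BIK had no entry. The E-box CACGTG, the palindrome bound by MYC and related factors, was found in 2 of the 15 windows, both of BID, and in 7.26% of all 35116 windows. These 2 BID windows overlap and hold the same E-box, so it is 1 site. The GC box GGGCGG, on either strand, was found in 10 of 15 windows, belonging to BAD, BAK1, BCL2L1, BCL2L11, BID and BMF, and in 45% of all windows. Overlapping windows share sites here too, and the 2 BAD windows hold 1 site. The STAT motif TTCNNNGAA was found in 1 window, that of BCL2A1, and in 7.66% of all windows. No overlap between different motifs was removed. The BID window at chr22:17773993-17774292 (minus strand), one of 5 for this gene, is printed with the E-box in capitals, and the BCL2L1 window at chr20:31722819-31723118 (minus strand), one of 2, with the GC box, here in its reverse complement, in capitals.
BID: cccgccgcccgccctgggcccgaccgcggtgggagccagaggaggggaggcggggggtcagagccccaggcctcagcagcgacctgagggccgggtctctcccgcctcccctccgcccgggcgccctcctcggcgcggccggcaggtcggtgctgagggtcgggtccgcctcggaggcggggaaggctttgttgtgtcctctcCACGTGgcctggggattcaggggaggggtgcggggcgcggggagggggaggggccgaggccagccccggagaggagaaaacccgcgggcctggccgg
BCL2L1: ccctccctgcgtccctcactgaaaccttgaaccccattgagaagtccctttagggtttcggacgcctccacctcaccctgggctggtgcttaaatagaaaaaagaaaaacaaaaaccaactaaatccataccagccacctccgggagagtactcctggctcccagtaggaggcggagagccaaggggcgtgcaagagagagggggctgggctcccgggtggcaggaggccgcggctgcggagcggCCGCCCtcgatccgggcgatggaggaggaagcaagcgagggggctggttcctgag
A match describes the letters in the window and not a bound site. MYC mRNA, named after its values were seen and outside the naming rule, was 4.21 higher in IM-9 than in U266 at 0 h (adjusted p = 4.13e-26). It belongs to a list of regulators of which 7 genes were higher and 6 lower in IM-9. A link between MYC and BID mRNA was not tested.

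The 4 anti-apoptotic members had a median difference of -0.81 at 0 h (IM-9 minus U266), and the 6 pro-apoptotic members -0.03, which puts anti minus pro at -0.78. Over 12 alternatives, the left-out arrays included, this value was -0.83 to -0.67. The median difference over all probes was 0.00. A different anti minus pro value, taken on each single array, had an SD of 0.0841 within groups. No difference between the lines enters that SD, so it does not give the precision of -0.78. The pro-apoptotic median lies between BAK1 (-0.10) and BCL2L11 (0.03), and BID and BIK, the members at its ends, do not enter it.

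On the main values the gap between the classes was narrower at each later hour than at 0 h in both arms, as a description without a test. In Control cells it did not shrink steadily. Anti minus pro was -0.64 at 1 h, -0.44 at 3 h, -0.37 at 9 h and 0.01 at 24 h with ch128.1Av. In Control cells it was -0.42 at 1 h, -0.47 at 3 h, -0.28 at 9 h and -0.01 at 24 h. At 24 h it ranged over 5 processing alternatives from -0.09 to 0.03 with ch128.1Av and from -0.13 to 0.05 in Control. At 1, 3 and 9 h these ranges were -0.83 to -0.53, -0.59 to -0.35 and -0.46 to -0.32 with ch128.1Av. In Control they were -0.46 to -0.23, -0.55 to -0.37 and -0.47 to -0.14, which overlap. Both medians moved: at 24 h in Control cells the anti-apoptotic members stood at -0.50 and the pro-apoptotic members at -0.48. The former lies between MCL1 (-0.795) and BCL2 (-0.197), and the latter between BAK1 (-0.97) and BCL2L11 (-0.0034). BCL2L1 (-1.89) and BID (1.81) do not enter these medians and stayed far apart between the lines, so a narrow gap does not describe every member.

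**Figure D3:**
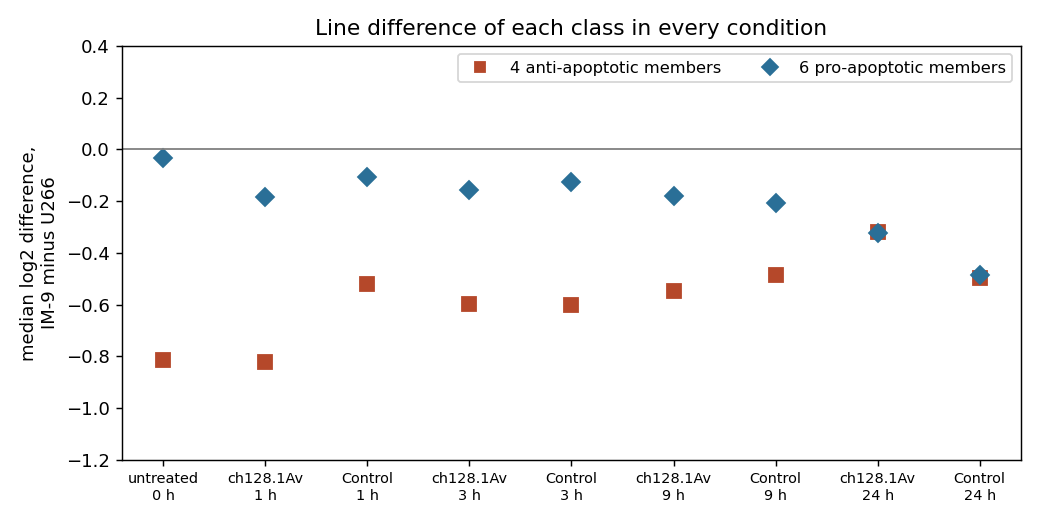
Median log2 difference, IM-9 minus U266 (y axis), of the 4 anti-apoptotic members (squares) and the 6 pro-apoptotic members (diamonds) in each condition (x axis). Anti minus pro is -0.78 in untreated cells, and at 24 h it is 0.01 with ch128.1Av and -0.01 in Control.

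Over all arrays, treated ones included, 4 of 10 members kept the lines wholly apart, against 42.8% of all probes. These were BCL2L1 (9.76 to 10.35 in IM-9, 11.90 to 12.39 in U266), BID (10.33 to 10.72 in IM-9, 8.74 to 9.18 in U266), BIK (7.70 to 7.84 in IM-9, 8.47 to 8.99 in U266) and BAD (8.50 to 8.96 in IM-9, 9.00 to 9.82 in U266). Across the 9 conditions the BCL2L1 difference was -2.17 to -1.77 and the BID difference 1.44 to 1.81. The BCL2 difference was -1.10 to -0.04, the smallest being that of the treated cells at 24 h. BAD, BAK1, BCL2, BCL2L1, BIK and MCL1 were each lower in IM-9 in 9 of 9 conditions. The BAD differences were -1.10 to -0.27 on its brighter probe, which moved with array brightness as given below. The second BAD probe overlapped between the lines (7.88 to 8.04 in IM-9, 7.79 to 8.005 in U266).

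The next comparison asks whether ch128.1Av moved the members. In IM-9, the line labelled sensitive, it moved none past the test at any hour. Of 10 members, 0 were called by limma at 1 h (background 0%), 3 h (0.0166%), 9 h (0.0993%) and 24 h (13.0%). At an unadjusted p under 0.05 there were 0, 2, 4 and 1 members at these hours. Anti minus pro of the treated minus Control differences is given as a description without a test. It was -0.0014 at 1 h, 0.07 at 3 h, 0.18 at 9 h and -0.10 at 24 h. Over the alternatives, left-out arrays included, it was 0.12 to 0.21 at 9 h and -0.17 to -0.02 at 24 h. The 24 h comparison is the one in which many other genes were called, and the members' differences there had a median size of 0.11, against 0.07 for all probes. The value of 0.11 is from the highest-mean probe of each gene, whereas 0.07 includes dimmer second probes, so the 2 sets are not alike.

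The guardians in IM-9 at 24 h are given with their intervals. BCL2 was at 10.73 and 10.71 with ch128.1Av, against 10.50 and 10.67 in Control (0.13, 95% CI -0.03 to 0.30, adjusted p = 0.307). BCL2L1 was at 9.99 and 9.76 with ch128.1Av, against 9.96 and 10.13 in Control (-0.17, 95% CI -0.37 to 0.02, adjusted p = 0.241). MCL1 was at 8.33 and 8.47 with ch128.1Av, against 8.31 and 8.38 in Control (0.06, 95% CI -0.16 to 0.28, adjusted p = 0.82). The interval of BCL2 leaves out values under -0.03 and that of BCL2L1 values over 0.02, while that of MCL1 spans both signs.

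BCL2A1 in IM-9 at 24 h was not detected on either treated array (7.82 and 7.75) and was detected on both Control arrays (7.85 and 7.90). The difference of -0.09 did not pass (SE 0.034, adjusted p = 0.0805), and it passed in the authors' deposited log2 values (-0.35, adjusted p = 0.0452) and without treated replicate 1 (-0.12, adjusted p = 0.0382). BAK1 was at 9.70 and 9.73 with ch128.1Av, against 9.47 and 9.30 in Control, without overlap (0.33, 95% CI -0.07 to 0.73, adjusted p = 0.302). It spanned -0.10 to 0.33 over the processing alternatives and passed when IM-9 was fitted by itself (adjusted p = 0.043). BMF was at 8.49 and 9.00 with ch128.1Av, against 8.62 and 8.41 in Control, so its treated arrays lay on either side of both Controls (0.23, adjusted p = 0.24). Without treated replicate 1 it was 0.49 (adjusted p = 0.00724).

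The remaining BH3-only genes in IM-9 at 24 h differed from Control by at most 0.16. BAD was at 8.55 and 8.90 with ch128.1Av, against 8.63 and 8.50 in Control (0.16, adjusted p = 0.512). BID differed by 0.00, BCL2L11 by -0.04 and BIK by -0.04. Brightness was 6.71 and 3.97 on the treated arrays and 9.24 and 9.29 on the Control arrays, and its part in these values was not tested beyond the covariate fit.

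At 9 h in IM-9, 7 of 10 members had treated and Control arrays that did not overlap, against 47.4% of all probes. BCL2L1 was at 10.23 and 10.24 with ch128.1Av, against 9.94 and 9.99 in Control (0.28, 95% CI 0.08 to 0.47, adjusted p = 0.427). BID was at 10.68 and 10.72 with ch128.1Av, against 10.51 and 10.37 in Control (0.26, adjusted p = 0.492). BCL2A1 was at 7.91 and 8.001 with ch128.1Av, against 7.85 and 7.81 in Control (0.12, adjusted p = 0.24). The others without overlap were BCL2 (0.17), BCL2L11 (0.07), BAK1 (-0.11) and BAD (-0.09), so both signs occurred. All these differences were at most 1.21-fold and did not pass. At 24 h BCL2L1, BID and BCL2A1 stood at -0.17, 0.00 and -0.09. BCL2, BCL2L11, BAK1 and BAD stood at 0.13, -0.04, 0.33 and 0.16 at that hour.

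In U266, the tolerant line, 1 of 10 members was called at 1 h (background 9.02%) and 0 were called at 3 h (0.00828%), 9 h (0.0414%) and 24 h (0.0166%). At an unadjusted p under 0.05 there were 2 members at 1 h and 0 at each later hour. The called member was MCL1, which rose. Anti minus pro of the treated minus Control differences, without a test, was 0.09 at 1 h, -0.01 at 3 h, 0.06 at 9 h and -0.0018 at 24 h. Over the alternatives it was 0.01 to 0.12 at 1 h and took both signs at each later hour.

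MCL1 in U266 at 1 h was at 8.94, 8.95 and 8.87 with ch128.1Av, against 8.48 and 8.65 in Control, without overlap. The difference was 0.35 (SE 0.0971, 95% CI 0.15 to 0.55, n = 3 and 2, adjusted p = 0.0278), or 1.28-fold. All 3 treated arrays belonged to the 7 with a top raw signal over 60000 and neither Control did, so within this hour each arm lay in a set of its own. A fit with the array set as a block, which draws on the other groups, gave 0.43 (adjusted p = 0.369). Brightness was 3.95 to 5.62 on the treated arrays and 8.89 and 9.21 on the Controls. The call was also lost with brightness as a covariate (0.26, adjusted p = 0.322), with median scaling (0.22, adjusted p = 0.737) and when U266 was fitted by itself (0.35, adjusted p = 0.113). It was lost too when Control replicate 1 was left out (0.27, adjusted p = 0.212) and when treated replicate 2 was (0.34, adjusted p = 0.088). The difference was positive in all 9 processing alternatives, at 0.22 to 0.43.

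At the later hours MCL1 in U266 did not pass. It was at 8.47 and 8.80 with ch128.1Av at 3 h, against 8.62 and 8.69 in Control. At 9 h it was at 8.67, 9.12 and 8.99 with ch128.1Av, against 8.73 and 8.75 in Control (0.18, adjusted p = 1). At 24 h it was at 8.99 and 9.00 with ch128.1Av, against 9.12 and 9.16 in Control (-0.14, adjusted p = 0.898). The direction therefore was not kept from hour to hour.

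Ordered by mean, MCL1 in U266 was highest in untreated cells at 0 h (9.28), followed by Control at 24 h (9.14) and ch128.1Av at 24 h (9.00), and lowest in Control at 1 h (8.57). The treated groups at 9 h (8.93) and 1 h (8.92) overlapped each other, as did the groups at 3 h (8.64 with ch128.1Av, 8.66 in Control) and Control at 1 h. The untreated cells, at 9.17 and 9.38, overlapped with no other U266 group. In IM-9, MCL1 stayed between 8.26 and 8.51 on all 19 arrays. Over the 18 group means, with each line's mean subtracted, the named genes most like MCL1 were CLEC2D (Pearson r 0.919), GALK2 (0.91) and AMACR (0.904), a description over points that share arrays and brightness.

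BAD in U266 at 1 h was at 9.35, 9.66 and 9.61 with ch128.1Av, against 9.31 and 9.10 in Control (0.34, 95% CI 0.08 to 0.59, adjusted p = 0.0871), and it stood at 0.02 with brightness as a covariate and at 0.0014 with the array set as a block. BAK1 was at 9.88, 10.37 and 10.32 with ch128.1Av, against 10.80 and 10.24 in Control (-0.33, adjusted p = 0.236), a gene whose arrays spread widely within the group. The other members in U266 ranged from -0.24 to 0.13 at 1 h. At 3, 9 and 24 h all 10 members lay between -0.26 and 0.18.

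The difference between the lines in the ch128.1Av effect was tested directly. Of 10 members, 0 were called by limma at 1 h (background 0.0828%), 3 h (0%), 9 h (0.0166%) and 24 h (4.69%). At an unadjusted p under 0.05 there were 2, 1, 1 and 2 members. MCL1 at 1 h gave -0.39 (IM-9 minus U266, SE 0.144, adjusted p = 0.251), and BAD at 24 h gave 0.42 (SE 0.192, adjusted p = 0.202). A difference between the lines in these members was not shown.

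**Figure D4:**
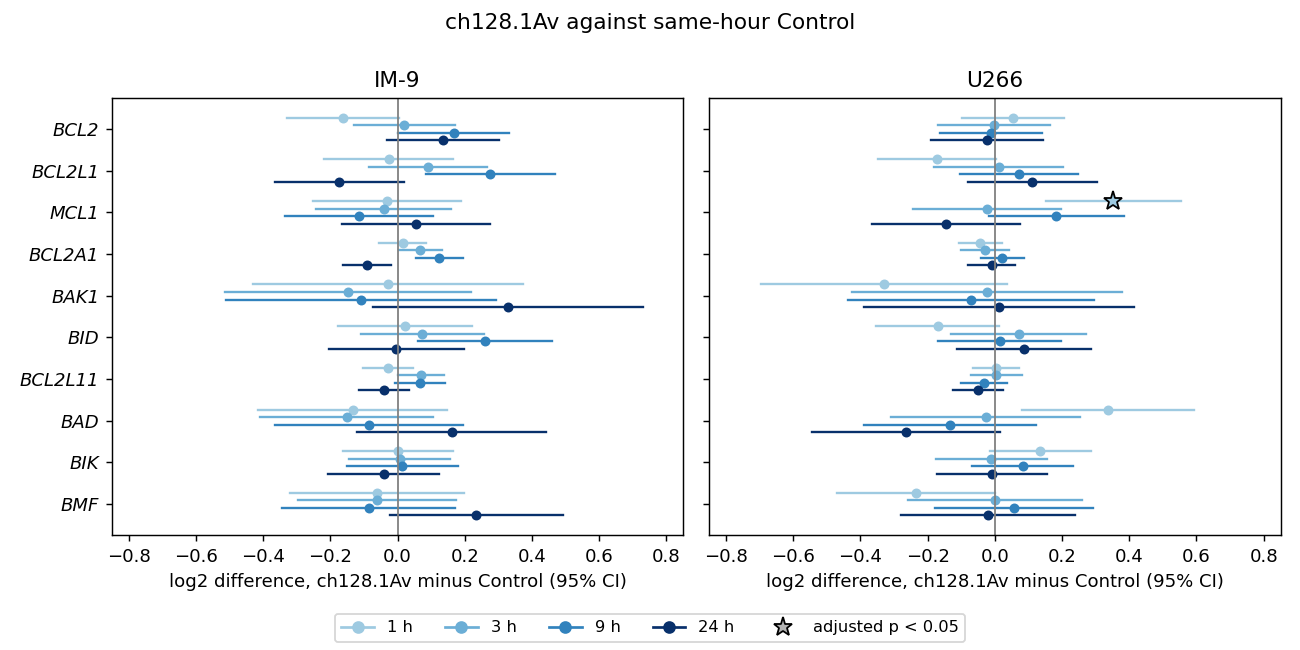
Log2 difference, ch128.1Av minus same-hour Control (x axis), for each member (y axis) in IM-9 (left) and U266 (right), with 95% confidence intervals and darker colour for later hours. The star, MCL1 in U266 at 1 h, is the only value with an adjusted p under 0.05, and no other mean exceeds 0.34 in size.

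Culture without ch128.1Av moved 1 member in each line between 0 and 24 h. In IM-9, BCL2 rose, which is 1 of 10 members (background 15.7%). It was at 10.50 and 10.67 in Control at 24 h, against 9.85 and 9.91 in untreated cells, a difference of 0.71 (SE 0.0803, 95% CI 0.54 to 0.88, n = 2 and 2, adjusted p = 1.44e-06) or 1.64-fold. The call held in all 9 processing alternatives and without each of the 4 arrays, and median scaling gave 1.12.

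The BCL2 values in IM-9 ran through the hours in the same way in both arms. In Control cells they were 9.74 and 9.75 at 1 h, 9.98 and 9.96 at 3 h, 10.12 and 10.02 at 9 h and 10.50 and 10.67 at 24 h. With ch128.1Av they were 9.59 and 9.57 at 1 h, 10.06, 9.96 and 9.95 at 3 h, 10.28 and 10.19 at 9 h and 10.73 and 10.71 at 24 h. In each arm every later group of arrays lay above every earlier one from 1 h on. Brightness at 24 h was 6.71 and 3.97 on the treated arrays and 9.24 and 9.29 on the Control arrays. Over the 19 IM-9 arrays, BCL2 had a Pearson r of 0.50 with brightness. The part of brightness in the BCL2 rise was not tested beyond the covariate fit. In U266, BCL2 was at 10.80 and 10.77 in Control at 24 h, against 10.70 and 10.57 in untreated cells (0.15, adjusted p = 0.245). The BCL2 levels of the lines were thus nearest to each other at 24 h.

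In U266 the member called between 0 and 24 h was BAD (background 12.1%). It was at 9.82 and 9.51 in Control at 24 h, against 9.03 and 9.15 in untreated cells, a difference of 0.58 (SE 0.136, 95% CI 0.30 to 0.86, adjusted p = 0.00901) or 1.49-fold. Brightness was 4.23 and 5.99 at 24 h and 11.7 and 6.55 at 0 h. The call was lost with brightness as a covariate (0.29, adjusted p = 0.213) and with median scaling (0.35, adjusted p = 0.461). It was lost at the same size of 0.58 in a fit of U266 by itself (adjusted p = 0.0523), and also without 24 h replicate 1 (0.42, adjusted p = 0.198) or untreated replicate 1 (0.52, adjusted p = 0.11). The second BAD probe gave 0.02 (adjusted p = 0.825). BAK1 was at 10.42 and 10.28 in Control at 24 h, against 9.71 and 9.87 in untreated cells (0.56, adjusted p = 0.0583), without overlap and without passing.

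Several members moved with array brightness within a line, given here as a description over arrays that share hours and treatments. For BAD, Pearson r was -0.76 over 19 IM-9 arrays and -0.86 over 20 U266 arrays. Arrays with a lower brightness ratio thus had higher BAD values in both lines. BAK1 had r of -0.75 in IM-9 and -0.32 in U266, and BID 0.53 in IM-9 and 0.70 in U266. BCL2 had 0.50 in IM-9 and 0.18 in U266, and MCL1 -0.57 in IM-9 and -0.21 in U266. The part of brightness in the BAD result was not separated further.

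**Figure D5:**
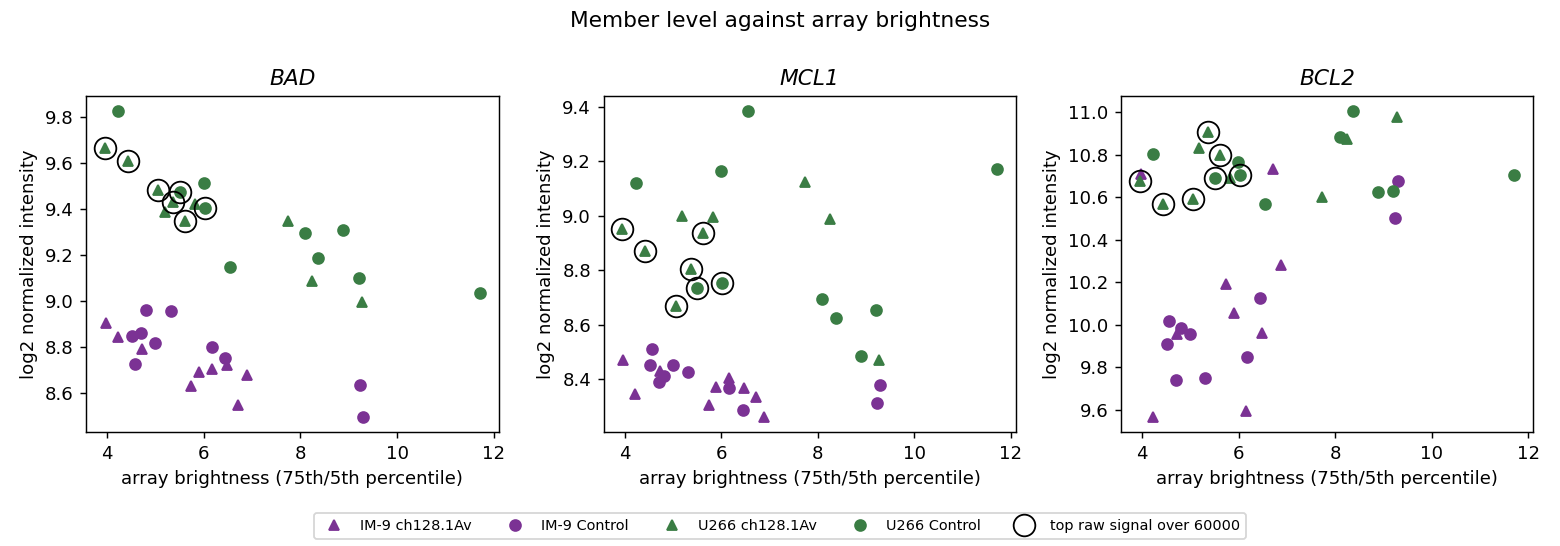
Log2 normalized intensity of BAD, MCL1 and BCL2 (y axes) against array brightness, the 75th percentile of raw intensity over the 5th (x axes), with one point per array and the 7 arrays with a top raw signal over 60000 circled. BAD falls as this ratio grows in both lines, and the circled arrays lie at low values of the ratio despite their high top signal.

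Second probes were kept for BCL2, BID, BCL2L11 and BAD, and none of them was called in any comparison. The second BCL2 probe was detected on 10 IM-9 and 2 U266 arrays and the second BID probe on 6 IM-9 and 0 U266 arrays, so they carry little information. The second BAD probe was detected on 19 IM-9 and 19 U266 arrays, all between 7.79 and 8.04.

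Other genes of the pathway were read from a list of 23 genes, of which 19 were tested. In IM-9 at 24 h, 3 rose and 0 fell, a share near the 13.0% of all probes called. BAX, the partner effector of BAK1, rose by 0.43 (SE 0.0968, adjusted p = 0.00414), AIFM1, a mitochondrial flavoprotein released in apoptosis, by 0.48 (SE 0.113, adjusted p = 0.00604), and PMAIP1, which encodes the MCL1 antagonist NOXA, by 0.15 (SE 0.0431, adjusted p = 0.0221). The list's median was 0.03, against 0.00 for all probes. These 3 calls were lost with median scaling (0.08, 0.06 and 0.07, adjusted p = 0.718, 0.846 and 0.423), with brightness as a covariate (0.35, 0.32 and 0.14, adjusted p = 0.0744, 0.136 and 0.121) and without treated replicate 2 (0.28, 0.24 and 0.097, adjusted p = 0.199, 0.317 and 0.416). AIFM1 was also lost without Control replicate 2 (0.133) and PMAIP1 without Control replicate 1 (0.334).

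In U266 at 1 h, 1 gene of the list rose and 2 fell, against 9.02% of all probes called, on the arrays whose arms lay in separate array sets. XIAP, a caspase inhibitor, rose by 0.19 (adjusted p = 0.0282). HRK, a BH3-only gene, fell by 0.15 (adjusted p = 0.0227) and APAF1, the apoptosome scaffold, fell by 0.32 (adjusted p = 0.0352). With the array set as a block the differences of XIAP, HRK and APAF1 were 0.16, -0.092 and -0.24 and the calls were lost (adjusted p = 0.575, 0.755 and 0.71). With brightness as a covariate they were 0.24, -0.062 and -0.14 (adjusted p = 0.109, 0.506 and 0.568). Leaving out a single array raised the adjusted p to as much as 0.153 for XIAP (Control replicate 1), 0.278 for HRK (Control replicate 2) and 0.228 for APAF1 (Control replicate 2). Between the untreated lines 9 of 19 were higher and 6 lower in IM-9, against 66.6% of all probes called.

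A list of 23 regulators and partners of the members gave 21 tested genes. In IM-9 at 24 h, 3 rose and 0 fell, again a share near the 13.0% of all probes called. The 3 were FBXW7, a ubiquitin ligase subunit known to target MCL1, by 0.47 (adjusted p = 0.018), FOXO1, a transcription factor of the family that activates BCL2L11, by 0.29 (adjusted p = 0.0114), and GSK3B, a kinase that marks MCL1 for destruction, by 0.27 (adjusted p = 0.011). FOXO1 and GSK3B turned to -0.087 and -0.12 with median scaling, which moved the median of all probes to -0.14, and FBXW7 stood at 0.02 there (adjusted p = 0.976). With brightness as a covariate FOXO1 was 0.28 (adjusted p = 0.0701), GSK3B 0.17 (0.213) and FBXW7 0.64 (0.00795). FOXO1 and GSK3B were also lost without Control replicate 2 (adjusted p = 0.282 and 0.16) or treated replicate 2 (0.123 and 0.129), and FBXW7 without Control replicate 1 (0.127) or treated replicate 1 (0.062) or 2 (0.0963). The MCL1 and BCL2L11 mRNAs on the same arrays stood at 0.06 and -0.04, with BCL2L11 at the detection limit. MCL1 protein, on which FBXW7 and GSK3B act, was not measured. In U266 at 1 h, FBXW7 rose by 0.39 (adjusted p = 0.0421) and no other gene of the list was called, against 9.02% of all probes. This call was lost with the array set as a block (0.40, adjusted p = 0.559), with brightness as a covariate (0.57, adjusted p = 0.0838) and without Control replicate 1 (0.204) or 2 (0.1) or treated replicate 1 (0.129) or 2 (0.0957). Between the untreated lines 7 were higher and 6 lower in IM-9, against the same 66.6%.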

How the data were processed

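Per the file headers, the deposited scanner table held each probe's mean bead intensity on a linear scale and a detection score, a fraction whose complement was used as the detection p-value. No label states this use, and some bright probes fail detection. BAD, for example, was detected on 17 of 19 IM-9 arrays although its lowest level there was 8.50. BeadStudio is named in the submitters' processing notes, and the genome build is not given in the sources used here. The other deposited table was on the log2 scale, quantile-normalized by the authors as judged from its values. It served as an alternative. In all, 78 further per-sample columns were not used. Probes were named from the platform's probe annotation, and 18332 of 20589 had 1 symbol.

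With limma 3.58.1 (R 4.3.3), nec removed the background using the detection p-value and an offset of 16, and quantile normalization and log2 followed. Of 20589 probes, 12080 were kept, those detected at a p-value under 0.01 on 2 or more arrays. A limma model with 18 group means (21 residual degrees of freedom) gave 15 two-sided contrasts, each adjusted by Benjamini-Hochberg over all kept probes and called at 0.05. A fold against a line where a probe was undetected was counted from the lowest level of any detected probe on each array, where higher. Such a fold is not a strict lower bound, since it leaves out the spread between arrays. The number of arrays limits the precision.

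All 10 members are named whatever their values. From each of the 2 pathway lists, up to 4 called genes with the smallest p-values are named in the treatment contrast of each line that called most of them. For a member called with ch128.1Av, the 3 genes most like it are named. Members and lists were chosen with earlier results of these data known. The 8 treated groups were compared with 8 same-hour Control groups. Replicate numbers did not pair the arrays: same-numbered treated and Control arrays deviated together with a correlation of -0.686 to 0.295 over 8 pairs. Alternatives were median scaling, the authors' values, an offset of 50, no filter, 1 probe per gene, a replicate block, array brightness, array set, each line by itself, and each array left out.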

Additional observations from a re-analysis of the deposited data

How the results depend on the processing

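The counts of called members stayed within 1.5 times their value in 194 of 212 alternatives. Most of these counts were 0, and a count that stayed at 0 was taken as the same. Of 403 results for single genes under the alternatives, 67 lost a call, 12 gained one and 2 changed sign. Of 252 anti minus pro values, 30 moved by 0.0841 or more, the SD within groups. For IM-9 at 24 h the count of 0 became 1 with the authors' values and 1 with each line fitted by itself, and was 0 to 2 with an array left out. For U266 at 1 h the count of 1 became 0 with median scaling, array brightness, array set or each line by itself, and was 0 to 3 with an array left out (3 without treated replicate 1: MCL1, BAD and BIK). The difference between lines at 24 h was 0 to 1 with an array left out. For Control at 24 h against 0 h, the count in IM-9 became 2 with each line by itself and was 1 to 2 with an array left out. In U266 it became 0 with median scaling, array brightness or each line by itself, and was 0 to 1 with an array left out. The count of 7 between the untreated lines was 7 without each array in turn and 8 with median scaling or array set, where BAD was added. With array brightness it was 7, with BAD added and BMF lost. With replicate number as a block (replicate block), 1 member was called in U266 at 1 h and 7 between the untreated lines, and no other count of members changed.

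With median scaling, GSK3B and FOXO1 in IM-9 at 24 h turned to -0.12 and -0.087. Over all probes, the 1576 called in IM-9 at 24 h became 779 with median scaling and 602 with array brightness. The 1090 called in U266 at 1 h became 62 with median scaling, 8 with array brightness, 2 with array set and 212 with each line by itself. The 566 called for the difference between lines at 24 h became 18 with median scaling, 297 with the authors' values and 174 with array brightness. For Control at 24 h against 0 h, 1896 in IM-9 became 1149 with median scaling, and 1466 in U266 became 6, 264 with array brightness and 641 with each line by itself. The cause was not tested. Alternatives for the gap between the classes after 0 h were chosen after seeing the data. BCL2A1, BCL2L11 and, in IM-9, BIK lay at the detection limit, which compresses their differences.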
